A study of Mus musculus with 14 samples.

Results

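The olfactory epithelia of 3 Kir2.1 mice and 3 littermate control mice were compared at P5. These 6 mice were chosen as the samples of the Kir2.1 experiment, out of 14 samples in the series. The Kir2.1 mice carried the OMP-IRES-tTA allele together with the tetO-Kir2.1-IRES-tauLacZ transgene, and the control mice were OMP-IRES-tTA het, all on C57BL/6. The tTA allele was thus common to both groups, and the tetO transgene set them apart. Transcription of the transgene follows the Omp locus through tTA, so it is limited to neurons that express Omp, in which the study also counts the vomeronasal neurons. The records of these mice carry the treatment label Kir2.1-off, which the study uses for adults in which doxycycline had ended the silencing, but the mice were taken on postnatal day 5. Whole epithelia of single pups were measured as bulk RNA. Of the 51211 gene symbols of the deposited table, the 19807 with a mean normalized value of at least 10 over the 6 mice were analyzed, a limit that fell between Kremen2 with a mean of 9.998 and Gm44287 with a mean of 10.004.

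Olfactory sensory neurons (OSNs) arise throughout life from basal stem cells, pass through an immature state, and become mature neurons that carry cilia into the mucus and send an axon to the olfactory bulb. An odorant that binds its receptor activates the G protein Golf and adenylyl cyclase III, and cAMP opens a cation channel whose calcium current opens the chloride channel Ano2. Calcium then shuts the response off through calmodulin and a cyclic nucleotide phosphodiesterase, and exchangers carry it out of the cilium. OSNs also fire without odor. Kir2.1 is an inwardly rectifying potassium channel that holds the membrane near its resting potential, and its ectopic expression was used in the study to silence this activity.

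Kcnj2, which codes for Kir2.1 and lies on chromosome 11 of GRCm38 (111066164 to 111076821, ENSMUSG00000041695), had normalized values of 986, 1074 and 1274 in the control mice and 17926, 18530 and 24193 in the Kir2.1 mice. Every Kir2.1 mouse thus lay above every control mouse, 18.2-fold in the means (change of 4.18 on the log2 scale, SE 0.14, adjusted p = 0.000157; limma with Benjamini-Hochberg adjustment, which gave every adjusted p below). Omp, a marker of mature OSNs (ENSMUSG00000074006; chromosome 7, 98143359 to 98145502), had values of 31936, 31853 and 36226 in the control mice and 21062, 21452 and 23516 in the Kir2.1 mice. It was lower in every Kir2.1 mouse than in any control mouse (change of -0.60 on the log2 scale, SE 0.08, adjusted p = 0.0466), but its adjusted p was 0.0704 to 0.175 with any one mouse left out. In whole epithelium, fewer cells of a type and less RNA per cell cannot be told apart, in this and in every result below. The deposited values do not separate RNA of the transgene from RNA of the mouse's own Kcnj2.

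Control replicate 1 stood apart from the other 5 mice in one respect. Its vomeronasal receptor genes summed to 11787, against 1448 to 1743 in the others, so the fits were also made without it, and without each other mouse in turn. By Xist, which marks females, replicates 1 and 2 of both groups were females and replicate 3 of both groups was male, so the sexes were balanced. After the authors' normalization the 6 mice had sums of 33049111 to 34198478, and the number of reads behind them is not known. The first principal component of the log2 values held 25.6% of their variance and did not fully separate the groups, since control replicate 3 lay at 8.07 and Kir2.1 replicate 2 at 7.05.

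At an adjusted p under 0.05, 55 of the 19807 genes were called lower in the Kir2.1 mice and 15 were called higher, or 0.278% and 0.0757% of the genes tested. An unadjusted p under 0.05 was met by 6.2% of all genes with lower values and by 4.93% with higher values. Every Kir2.1 mouse was below every control mouse for 9.04% of all genes and above for 7.26%. These shares are the background for the counts given below for single gene lists, in the same order of rules. The median log2 fold change of all genes was 0.006. For a list, the median is followed in parentheses by its lowest and highest value over the fits that each left out 1 mouse, with the mouse left out. Of the 70 called genes, 15 were called again with each of the 6 mice left out in turn. These were Kcnj2, Spred1, S100a5, Kcng1, Kirrel2, Rasgrp4, Slc8a1, Kcnmb3, Tuba1c, Slc24a2, Scn4b and the pseudogenes or gene models Gm7658, Ncoa4-ps, Krt8-ps and Gm47021. The number of the 70 genes that was called again was 20 without control replicate 1, 19 without control replicate 2, 22 without control replicate 3, and 19, 23 and 37 without Kir2.1 replicates 1, 2 and 3. Of the 70, 26 were called in none of these 6 fits. Those named in the text were Omp, Jph4, Snph, Syt1, Synj2, Apba1, Mpp2, Chgb, Slc11a2, Trim12a, Tspyl4, Tspan7, Adam22, 6430548M08Rik, AC124742.1, Gm14018 and Gm2423. The other called genes outside the 15 lost the call without 1 or more of the mice. With the mean vomeronasal receptor value as a covariate 22 genes were called, 18 of them among the 70. None of the 70 changed direction in any of these fits, and each adjusted p below is that of all 6 mice. By annotation, 55 of the 70 were protein coding (46 lower and 9 higher) and 11 were pseudogenes (5 lower and 6 higher), while pseudogenes made up 4.43% of the genes tested.

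**Figure D1:**
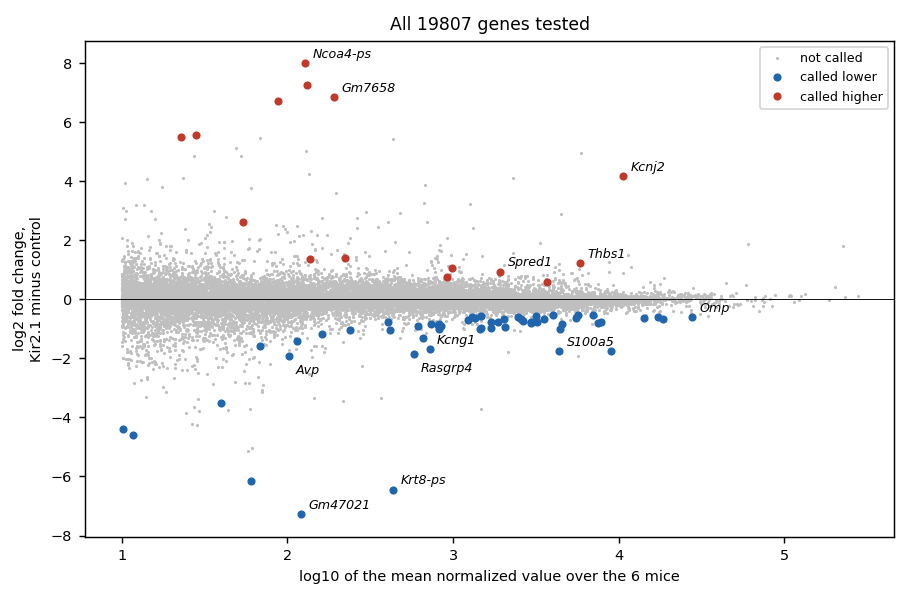
The mean normalized value over the 6 mice (log10) is plotted against the log2 fold change of the Kir2.1 mice over the control mice for each of the 19807 genes tested, with the 55 genes called lower in blue and the 15 called higher in red. Kcnj2 lies at 4.18, most called lower genes lie between -2 and -0.5, and the pseudogenes and gene models named lie farther out at low values.

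The 40 called lower genes that were protein coding and encoded neither a receptor of the Olfr, Taar or vomeronasal families nor an axon guidance molecule were led by S100a5, which encodes a calcium-binding EF-hand protein of OSNs. S100a5 (ENSMUSG00000001023; chromosome 3, 90608523 to 90611780) had values of 6859, 6774 and 6616 in the control mice and 1976, 2179.8 and 1882 in the Kir2.1 mice. The mice of each group lay close together, and the gap between the groups was 0.891 of the whole range of the 6 values, the widest relative gap of the 70 called genes. The Kir2.1 mice had 29.8% of the control mean (change of -1.75 on the log2 scale, SE 0.07, adjusted p = 0.000215). Rasgrp4, an activator of Ras that responds to diacylglycerol (chromosome 7, 29134851 to 29153961), had values of 892, 957 and 868 in the control mice and 222, 291 and 246 in the Kir2.1 mice. All 3 Kir2.1 mice were again far below all controls, at 27.9% of the control mean (change of -1.84 on the log2 scale, SE 0.12, adjusted p = 0.00254). Lrrc3b, which encodes a membrane protein with leucine-rich repeats, fell from 1122, 1065 and 1118 to 559.9, 553 and 642 (change of -0.91 on the log2 scale, SE 0.09, adjusted p = 0.0126). These 3 genes and Kirrel2 are 4 of the 5 members of a list of genes known to follow OSN activity, and all 4 were called lower. The fifth, Kirrel3, was not called and had a log2 fold change of 0.13 (adjusted p = 0.705). The study, with its count model, reports Kirrel3 as upregulated in the Kir2.1 mice, in the direction opposite to Kirrel2. The list rests on published activity-dependent genes, and the results for its members in these samples were known when it was made, so its count is a description only.

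Of the genes of calcium extrusion, Slc8a1 and Slc24a2 were called lower. Slc8a1 encodes the sodium-calcium exchanger NCX1 (chromosome 17, 81373105 to 81738377), and its values were 1802, 2054 and 1996 in the control mice and 977, 954 and 954 in the Kir2.1 mice. The Kir2.1 mice had 49.3% of the control mean and differed little among themselves (change of -1.02 on the log2 scale, SE 0.08, adjusted p = 0.00532). Slc24a2 encodes NCKX2, an exchanger that carries calcium out against sodium with potassium, and its values were 3579, 3877 and 3822 in the control mice and 2104, 2230 and 2156 in the Kir2.1 mice. All Kir2.1 mice lay below all control mice (change of -0.80 on the log2 scale, SE 0.07, adjusted p = 0.00704). These were the called members among 21 tested calcium pumps and exchangers, of which 6 were lower and none higher with an unadjusted p below 0.05, with a median log2 fold change of -0.19 (-0.28 without control replicate 1 to -0.05 without control replicate 2). The median was -0.069 without Kir2.1 replicate 3. The summed values of that list overlapped between the groups.

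Of 35 calcium sensors and calcium-dependent kinases, 3 were called lower and none higher, 8 were lower and none higher with an unadjusted p below 0.05, and the median was -0.13 (-0.19 without Kir2.1 replicate 3 to -0.12 without Kir2.1 replicate 2). Without control replicate 1, 1 of the 35 was called. Beside S100a5 the called members were Vsnl1, a neuronal calcium sensor of the visinin family, and Pcp4l1, a relative of the calmodulin regulator Pcp4. Vsnl1 had values of 1051, 1041 and 1078 in the control mice and 538, 594 and 649 in the Kir2.1 mice, and Pcp4l1 had values of 9369, 9962 and 9136 in the control mice and 6079.8, 4944 and 5350.1 in the Kir2.1 mice. In both genes the groups did not overlap, with log2 fold changes of -0.84 and -0.80 (adjusted p = 0.0223 for both). Jph4, a junctophilin that ties the endoplasmic reticulum to the plasma membrane of neurons, fell from 905, 1016 and 932 to 565, 488 and 530.5 (change of -0.85 on the log2 scale, SE 0.09, adjusted p = 0.0223).

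Ion channel subunits were the next group. Kcng1 (chromosome 2, 168260117 to 168281736) encodes a silent potassium channel subunit that works only together with Kv2 subunits, and its values were 1035, 1176 and 1111 in the control mice and 347, 363 and 320.1 in the Kir2.1 mice. Its Kir2.1 values were 31.0% of the control mean, with no overlap (change of -1.69 on the log2 scale, SE 0.10, adjusted p = 0.00107). Kcnmb3 encodes a beta subunit of the calcium-activated BK potassium channel, and its values were 932, 954 and 918 in the control mice and 418, 333 and 382 in the Kir2.1 mice. Here too every Kir2.1 mouse was below every control mouse (change of -1.31 on the log2 scale, SE 0.11, adjusted p = 0.00633). Among 76 potassium channel subunits tested, these 2 were called lower and Kcnj2 was called higher, 18 were lower and 3 higher with an unadjusted p below 0.05, and the median was -0.05 (-0.10 without Kir2.1 replicate 1 to -0.05 without control replicate 3). At that threshold 23.7% of the list was lower, against 6.2% of all genes, and Kcnj2 was 1 of the 3 higher members. The median nevertheless lay close to that of all genes.

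Scn4b, the beta4 subunit of voltage-gated sodium channels, had values of 5643, 6582 and 5570 in the control mice and 3174, 2891 and 2776 in the Kir2.1 mice. The Kir2.1 mice had 49.7% of the control mean (change of -1.01 on the log2 scale, SE 0.09, adjusted p = 0.00958). It was the called member of 31 sodium and calcium channel subunits, of which 11 were lower and 1 higher with an unadjusted p below 0.05, with a median of -0.23 (-0.26 without control replicate 1 to -0.19 without Kir2.1 replicate 2). Summed over that list, the values were 46317, 50706 and 48318 in the control mice and 36854, 38480 and 40347 in the Kir2.1 mice, and the groups did not overlap. Fgf12, an intracellular relative of fibroblast growth factors that binds sodium channels, fell from 2578, 2524 and 2341 to 1474, 1531 and 1701 (change of -0.66 on the log2 scale, SE 0.08, adjusted p = 0.0325). Of 39 tested HCN, TRP, anoctamin and chloride channel genes none was called, 6 were lower and none higher with an unadjusted p below 0.05, and the median was -0.04 (-0.11 without Kir2.1 replicate 2 to 0.0085 without control replicate 2). Among 36 neurotransmitter receptor subunits none was called, 3 were lower and 1 was higher by the unadjusted p, and the median was 0.03 (-0.06 without control replicate 3 to 0.06 without Kir2.1 replicate 1).

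Genes of the presynaptic terminal made up a further group. Slc17a6 encodes VGLUT2, the transporter that fills the synaptic vesicles of OSNs with glutamate, and its values were 3974, 4256 and 3898 in the control mice and 2298, 2407 and 2473 in the Kir2.1 mice. The Kir2.1 mice had 59.2% of the control mean, with no overlap (change of -0.76 on the log2 scale, SE 0.07, adjusted p = 0.00958). Snph encodes syntaphilin, which anchors mitochondria in axons, and it fell from 1507, 1635 and 1416 to 948, 903 and 981 (change of -0.68 on the log2 scale, SE 0.08, adjusted p = 0.0324). Syt1, the calcium sensor of vesicle release, fell from 3496, 3974 and 3809 to 2466, 2523 and 2633 (change of -0.56 on the log2 scale, SE 0.07, adjusted p = 0.0376). Synj2, a phosphoinositide phosphatase, fell from 1667, 1741 and 1546 to 1053, 1017 and 1148 (change of -0.62 on the log2 scale, SE 0.08, adjusted p = 0.0417). These 4 were the called members of 57 genes of synaptic vesicles and release. Of the 57, 26 were lower and 1 was higher with an unadjusted p below 0.05, 29 had every Kir2.1 mouse below every control mouse and 2 the reverse, and 48 had a log2 fold change below 0. The median was -0.27 (-0.34 without Kir2.1 replicate 3 to -0.23 without Kir2.1 replicate 1), and without control replicate 1 none of the 57 was called. The list summed to 137250, 145750 and 145840 in the control mice and 108180, 114200 and 126240 in the Kir2.1 mice, again with no overlap. Apba1, an adaptor of the presynaptic release machinery, and Mpp2, a scaffold protein of the membrane-associated guanylate kinase family, lay outside the list. Apba1 fell from 3658, 3650.3 and 3959.6 to 2333, 1964 and 2268 (change of -0.78 on the log2 scale, SE 0.09, adjusted p = 0.0223), and Mpp2 fell from 4594, 4885 and 4754 to 3292, 3214 and 3402 (change of -0.52 on the log2 scale, SE 0.06, adjusted p = 0.0307).

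Avp, Nptx2, Chga and Chgb, which encode secreted or granule proteins, were called lower. Avp, the precursor of the neuropeptide vasopressin (chromosome 2, 130580620 to 130582554), had low values of 144, 172 and 170.2 in the control mice and 46.8, 44.4 and 34.7 in the Kir2.1 mice. Its Kir2.1 values were 25.9% of the control mean (change of -1.93 on the log2 scale, SE 0.19, adjusted p = 0.0129), the lowest share among the 40 genes. Nptx2, a secreted pentraxin that gathers glutamate receptors at synapses, had values of 1916, 2298 and 2483 in the control mice and 1074, 1089.7 and 1271 in the Kir2.1 mice. The groups did not overlap (change of -0.96 on the log2 scale, SE 0.12, adjusted p = 0.0325). Chga and Chgb encode granins of dense core vesicles. Chga had values of 17252, 17516 and 16799 in the control mice and 10540, 10534 and 12456 in the Kir2.1 mice (change of -0.63 on the log2 scale, SE 0.08, adjusted p = 0.0416), and Chgb had values of 793, 849 and 771 in the control mice and 374, 486 and 437 in the Kir2.1 mice (change of -0.90 on the log2 scale, SE 0.12, adjusted p = 0.0376). Of 25 tested neuropeptide, neurotrophin, granin and pentraxin genes, which do not include Avp, 3 were called lower and none higher, 10 were lower and 2 higher with an unadjusted p below 0.05, and the median was -0.34 (-0.38 without control replicate 3 to -0.28 without control replicate 2). The unadjusted higher members were Igf2 and Igf1. Without control replicate 1, 1 of the 25 was called.

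Tuba1c, Nrn1l, Olfm1, Cend1 and Gpr162 were also among the 25 of the 40 genes with the smallest p. Tuba1c, an alpha-tubulin, had values of 5867, 5767 and 5892 in the control mice and 3235, 3482 and 3088 in the Kir2.1 mice. Both groups were tight, and the Kir2.1 mice had 55.9% of the control mean (change of -0.84 on the log2 scale, SE 0.07, adjusted p = 0.00633). None of the other 14 tubulins tested was called or passed an unadjusted p of 0.05, and the median of the list was 0.0057 (-0.04 without Kir2.1 replicate 3 to 0.01 without control replicate 1). Tubulin genes share long stretches of sequence, so reads of single genes can be split between them. Nrn1l, a relative of the neurite growth protein neuritin, fell from 2044, 1977 and 1862 to 1025, 896 and 1063 (change of -0.98 on the log2 scale, SE 0.09, adjusted p = 0.00958). Olfm1, a secreted olfactomedin of neurons, fell from 9012, 10479 and 9914 to 5653, 5756 and 5917 (change of -0.76 on the log2 scale, SE 0.07, adjusted p = 0.0126). Cend1, a membrane protein of neurons that have left the cell cycle, fell from 3131, 3433 and 3249.7 to 1931, 1892 and 2129 (change of -0.72 on the log2 scale, SE 0.08, adjusted p = 0.018). Gpr162, an orphan receptor, fell from 2036, 2312 and 2098 to 1151, 1251 and 1390.3 (change of -0.77 on the log2 scale, SE 0.09, adjusted p = 0.0325).

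**Figure D2:**
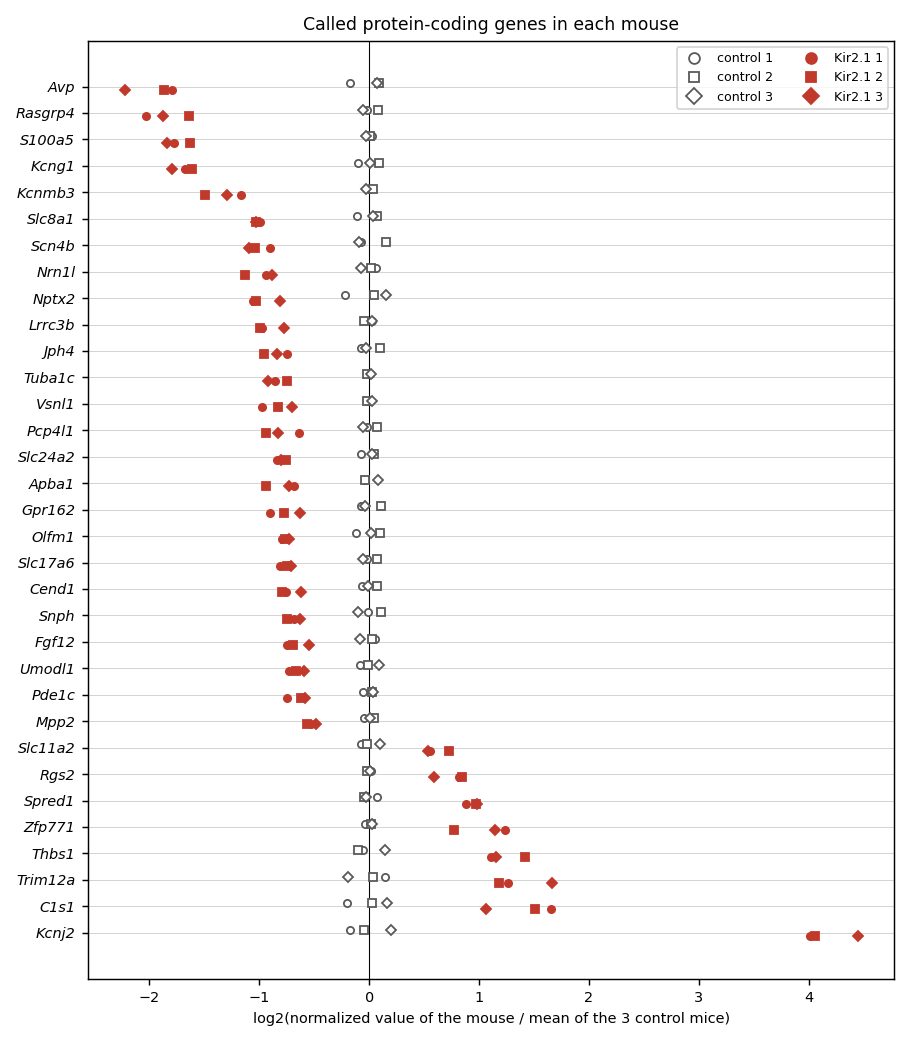
For the 25 lower and 8 of the 9 higher genes chosen by the smallest p, each mouse's normalized value is shown as log2 of its ratio to the mean of the 3 control mice, with open grey symbols for control mice and red symbols for Kir2.1 mice (circle, square and diamond for replicates 1, 2 and 3). Gm4353, listed at 0 in the control mice, is left out, and in every gene shown the red and grey symbols do not overlap.

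Odor transduction was examined next, and with it the markers of mature OSNs. Of 17 tested mature OSN markers, 3 (Slc17a6, Umodl1 and Omp) were called lower and none higher, 15 were lower and none higher with an unadjusted p below 0.05, and all 17 had a log2 fold change below 0. In 14 of the 17 every Kir2.1 mouse was below every control mouse. The changes ranged from -0.76 to -0.13 with a median of -0.41 (-0.46 without control replicate 1 to -0.38 without Kir2.1 replicate 1). The markers summed to 237270, 257850 and 254700 in the control mice and 172880, 179770 and 195440 in the Kir2.1 mice, so the 2 groups did not overlap. Without control replicate 1, 15 were again lower at an unadjusted p under 0.05, and none was called.

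A list of 25 tested genes covered the cAMP cascade, its chloride step and its shut-off, and also held Rtp1, Rtp2, Reep1, Stoml3 and Umodl1. It shared Gnal, Adcy3, Cnga2, Cnga4, Cngb1, Ano2, Stoml3, Gng13, Rtp1, Rtp2 and Umodl1 with the mature OSN markers. The results of these lists are therefore not separate. Of the 25, Slc8a1, Pde1c and Umodl1 were called lower and Rgs2 was called higher. At an unadjusted p below 0.05, 16 were lower and 1 was higher, and the median was -0.34 (-0.37 without control replicate 1 to -0.28 without Kir2.1 replicate 1). Without control replicate 1, 1 gene was called. Pde1c, the calmodulin-dependent phosphodiesterase of olfactory cilia, had values of 4176, 4418 and 4461 in the control mice and 2585, 2823 and 2908 in the Kir2.1 mice. Umodl1, which encodes olfactorin, had values of 21268, 22451 and 24120 in the control mice and 13654, 14212 and 14967 in the Kir2.1 mice. Both genes had no overlap between the groups, with log2 fold changes of -0.65 (adjusted p = 0.0223) and -0.66 (adjusted p = 0.0242). The central steps were named for their role, outside the rule for named genes, and none of them was called. Gnal, the alpha subunit of Golf, had values of 23695, 28807 and 28234 in the control mice and 17472, 18171 and 25703 in the Kir2.1 mice (change of -0.41 on the log2 scale, SE 0.16, adjusted p = 0.4). Adcy3, adenylyl cyclase III, had values of 15349, 18045 and 18828 in the control mice and 11982, 11861 and 11893 in the Kir2.1 mice (change of -0.54 on the log2 scale, SE 0.09, adjusted p = 0.072). Cnga2, the channel that cAMP opens, had a log2 fold change of -0.34 (adjusted p = 0.243), and Ano2 had one of -0.41 (adjusted p = 0.103). Of these 4, the groups overlapped in Gnal.

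Rgs2 was the only member of this list called higher. It encodes a regulator of G protein signaling that inhibits adenylyl cyclase in OSNs, and its values were 694, 679.7 and 692 in the control mice and 1214, 1234 and 1034 in the Kir2.1 mice. The Kir2.1 mice had 1.69 times the control mean, with no overlap (change of 0.75 on the log2 scale, SE 0.09, adjusted p = 0.0325). It was called in 1 of the 6 fits that left out a mouse, the one without Kir2.1 replicate 3, and its adjusted p was 0.0368 to 0.163 over the 6.

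Because the markers of mature OSNs were lower as a whole, the 40 called lower genes were also set against the markers of the same mouse. Of the 40, 22 had a log2 fold change below that of the lowest marker, and the median of the 40 was -0.76 against -0.41 for the markers. The sets are not separate, since Slc17a6, Umodl1 and Omp belong to both and Slc17a6 was the lowest marker. The 40 were chosen for low values, so this is a description without a test. Per 1000 units of the summed markers, S100a5 stood at 28.9, 26.3 and 26.0 in the control mice and 11.4, 12.1 and 9.63 in the Kir2.1 mice. Kcng1 stood at 4.36, 4.56 and 4.36 in the control mice and 2.01, 2.02 and 1.64 in the Kir2.1 mice on the same scale, and Slc24a2 at 15.1, 15.0 and 15.0 in the control mice and 12.2, 12.4 and 11.0 in the Kir2.1 mice. In all 3 genes the groups still did not overlap after the division. This held for 34 of the 40 genes, against 1.03% of all genes tested, and the 6 in which the groups then overlapped were Mpp2, 6430548M08Rik, Tspyl4, Tspan7, Synj2 and Adam22. Omp itself, with 137 ± 1.62 against 154 ± 12.5 per 1000 units of the other markers (mean ± SD, n = 3), was among the 34. Slc17a6 and Umodl1, also markers, were among them too. The markers Ebf1, Ebf2 and Cngb1 were instead higher without overlap (log2 ratios of means of 0.35, 0.33 and 0.10). In the remaining markers the groups overlapped, so the markers did not shift as one. Some gaps among the 34 were narrow, as for Plekhb1, with 76.33 in the highest Kir2.1 mouse and 76.85 in the lowest control mouse.

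**Figure D3:**
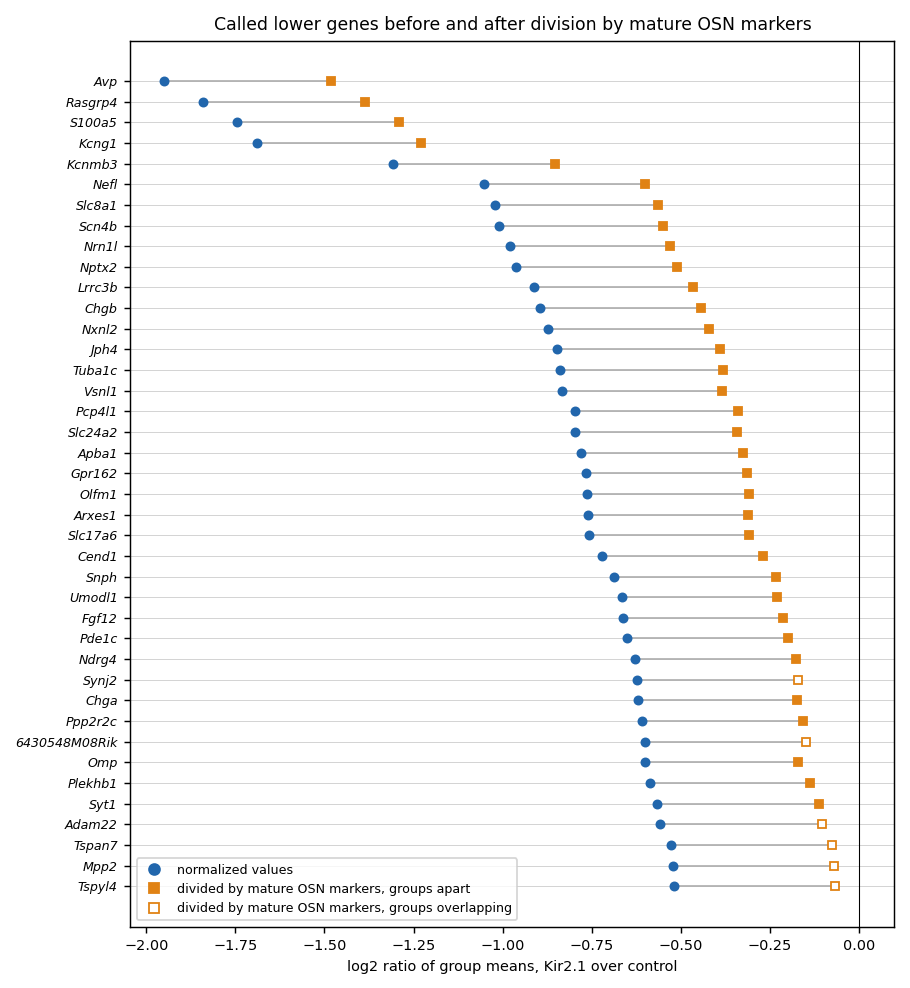
The log2 ratio of group means (Kir2.1 over control) is shown for the 40 called lower genes, as circles from the normalized values and as squares after each mouse's value was divided by its summed mature OSN markers. All squares lie nearer to 0 than their circles, filled squares mark the 34 genes whose groups still do not overlap, and Avp, Rasgrp4, S100a5, Kcng1 and Kcnmb3 remain lowest.

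The promoter windows of leading called genes are shown as a description of their sequence. RefSeq windows on GRCm38.p6, from 250 bases before to 50 after each start, were at hand for 39 of the 55 called lower genes and 6 of the 15 called higher genes. Kcng1, Rasgrp4 and Thbs1 were not matched. Outside the receptor and axon guidance families, the 6 called lower genes with the smallest p that had a window are printed with Spred1, which was called higher. They run 5′ to 3′ on the gene's strand, with base 251 as the start. Slc24a2 and Slc17a6 are each shown by the second of their 2 windows, chosen because it held more of the motifs. The first window of Slc24a2 held 1 match, to GCGTG, and that of Slc17a6 held none. Capitals mark a match to one of the motifs searched, TGACG (or CGTCA on the other strand), CCCNNGGG, TAATTA and GCGTG (or CACGC). The window of the mouse's own Kcnj2 was left out, since the transgene has the tetO promoter.
S100a5, chr3:90608272-90608571, plus strand: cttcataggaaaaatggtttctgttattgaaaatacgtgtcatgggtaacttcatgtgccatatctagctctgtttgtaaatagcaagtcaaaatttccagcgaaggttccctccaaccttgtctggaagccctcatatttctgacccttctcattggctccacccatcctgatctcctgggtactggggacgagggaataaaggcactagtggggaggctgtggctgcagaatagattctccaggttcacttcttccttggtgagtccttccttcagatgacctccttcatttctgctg
Slc8a1, chr17:81738338-81738637, minus strand: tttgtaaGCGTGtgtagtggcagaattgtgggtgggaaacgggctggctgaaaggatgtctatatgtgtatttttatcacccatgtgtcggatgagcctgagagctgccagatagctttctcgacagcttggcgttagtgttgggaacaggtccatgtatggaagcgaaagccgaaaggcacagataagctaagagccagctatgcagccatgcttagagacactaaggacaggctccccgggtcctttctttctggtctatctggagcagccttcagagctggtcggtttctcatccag
Kcnmb3, chr3:32491920-32492219, minus strand: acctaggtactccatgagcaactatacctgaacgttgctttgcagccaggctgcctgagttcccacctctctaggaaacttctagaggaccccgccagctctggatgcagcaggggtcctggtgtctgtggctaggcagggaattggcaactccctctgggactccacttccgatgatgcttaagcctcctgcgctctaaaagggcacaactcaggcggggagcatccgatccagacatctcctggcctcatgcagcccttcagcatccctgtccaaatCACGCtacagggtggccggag
Tuba1c, chr15:99029641-99029940, plus strand: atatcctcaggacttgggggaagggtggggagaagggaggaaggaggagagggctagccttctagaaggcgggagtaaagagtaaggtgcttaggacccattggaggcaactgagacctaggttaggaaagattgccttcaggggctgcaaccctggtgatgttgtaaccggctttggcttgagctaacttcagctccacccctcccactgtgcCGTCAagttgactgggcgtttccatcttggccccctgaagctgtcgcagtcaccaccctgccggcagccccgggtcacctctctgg
Slc24a2, chr4:87227914-87228213, minus strand: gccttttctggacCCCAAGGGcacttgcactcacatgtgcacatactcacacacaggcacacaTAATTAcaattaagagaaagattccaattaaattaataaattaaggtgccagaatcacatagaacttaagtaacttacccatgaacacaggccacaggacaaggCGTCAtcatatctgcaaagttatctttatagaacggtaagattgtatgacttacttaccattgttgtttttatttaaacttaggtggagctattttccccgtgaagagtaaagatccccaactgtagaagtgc
Slc17a6, chr7:51624387-51624686, plus strand: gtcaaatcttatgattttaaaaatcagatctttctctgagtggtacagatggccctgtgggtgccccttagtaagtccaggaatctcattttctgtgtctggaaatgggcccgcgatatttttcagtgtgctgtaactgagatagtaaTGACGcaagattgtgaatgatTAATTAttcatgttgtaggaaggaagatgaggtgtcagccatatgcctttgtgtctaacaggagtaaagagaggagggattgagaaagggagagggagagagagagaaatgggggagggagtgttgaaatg
Spred1, chr2:117120821-117121120, plus strand: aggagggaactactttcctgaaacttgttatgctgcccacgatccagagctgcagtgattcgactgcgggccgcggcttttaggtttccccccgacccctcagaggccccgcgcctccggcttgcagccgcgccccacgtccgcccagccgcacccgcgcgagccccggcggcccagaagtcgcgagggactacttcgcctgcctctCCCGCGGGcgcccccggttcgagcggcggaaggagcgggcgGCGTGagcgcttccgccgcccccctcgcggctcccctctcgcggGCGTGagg

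No motif was found in all 7 windows. S100a5, the gene with the widest relative gap, held none of the 7 motifs searched, which says only that those letters are not in this window. Over all genes with a window, the short form of the cAMP response element (TGACG) was found in 25.6% of the called lower genes and in 30.5% of the 14134 tested genes. The full element (TGACGTCA, which contains the short form) was found in 2 of the 39 called lower genes, Chgb and Tspyl4, or 5.13%, against 3.06% of the tested genes. The AP-1 site (TGANTCA) was found in 7.69% against 7.15%, the Olf/Ebf core (CCCNNGGG) in 23.1% against 19.9%, the homeodomain site (TAATTA) in 10.3% against 4.56%, the Npas4 core (GCGTG) in 46.2% against 48.6%, and the E-box (CACGTG) in 7.69% against 10.4%. Both strands were searched, and a match is a description of the letters, not a site shown to be bound.

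Of the genes called higher, 9 were protein coding and none was a receptor or axon guidance gene. After Kcnj2 these were led by Spred1, an inhibitor of Ras and the ERK kinases (chromosome 2, 117121374 to 117182279), with values of 1389, 1283 and 1297 in the control mice and 2432, 2593 and 2604 in the Kir2.1 mice. The groups lay far apart, 1.92-fold in the means (change of 0.94 on the log2 scale, SE 0.07, adjusted p = 0.00532). Thbs1, which encodes the secreted matrix protein thrombospondin 1 (chromosome 2, 118111876 to 118127133), had values of 3359.6, 3265 and 3878 in the control mice and 7536, 9322 and 7787 in the Kir2.1 mice. It was 2.35-fold higher (change of 1.23 on the log2 scale, SE 0.11, adjusted p = 0.00892) and lost its call only without control replicate 1, with an adjusted p of 0.0571 there. Spred1 and Rasgrp4, an inhibitor and an activator of Ras, were the only called members of 31 tested regulators of Ras and ERK, in opposite directions, and the median of the list was 0.05 (-0.02 without Kir2.1 replicate 2 to 0.06 without Kir2.1 replicate 1).

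Slc11a2, an iron transporter, rose from 2762, 2871 and 3119 to 4272, 4815 and 4227 (change of 0.60 on the log2 scale, SE 0.08, adjusted p = 0.0424). C1s1, a protease of the complement system, rose from 106, 123 and 135 to 382, 346 and 253 (change of 1.41 on the log2 scale, SE 0.19, adjusted p = 0.0417). Zfp771, a zinc finger gene, rose from 626, 647 and 653 to 1512, 1092 and 1418 (change of 1.05 on the log2 scale, SE 0.13, adjusted p = 0.0324). In these 3 genes the groups did not overlap. Trim12a, a member of the TRIM family with close paralogs, had values of 83.6, 77.4 and 66.5 in the control mice and 182, 172 and 240.4 in the Kir2.1 mice (change of 1.37 on the log2 scale, SE 0.19, adjusted p = 0.0424), and reads of such paralogs can be split between them. Of these 4, Slc11a2 and Trim12a were not called with any one mouse left out, and C1s1 and Zfp771 were called only without Kir2.1 replicate 3 and without Kir2.1 replicate 2, respectively.

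Immediate early genes, which are induced within minutes of neuronal activity, were not among the calls. Of 30 tested, none was called, none was lower and 5 were higher with an unadjusted p below 0.05 (2 without control replicate 2 to 7 without control replicate 3), and the median was 0.10 (0.05 without control replicate 2 to 0.17 without control replicate 3). The smallest unadjusted p belonged to Egr1, a zinc finger factor, with values of 449, 403 and 800.1 in the control mice and 904, 1244 and 873 in the Kir2.1 mice (change of 0.92 on the log2 scale, SE 0.27, adjusted p = 0.269). Klf2 had a log2 fold change of 0.51 (adjusted p = 0.295), and Junb one of 0.28 (adjusted p = 0.407). All 3 log2 fold changes were above 0, and in the list summed per mouse the groups overlapped.

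No gene that marks younger cells in the lineage was called. Of 17 immature OSN markers none was called or passed an unadjusted p of 0.05, and the median was 0.009 (-0.06 without Kir2.1 replicate 3 to 0.05 without Kir2.1 replicate 1). They summed to 190950, 195040 and 195670 in the control mice and 167690, 186420 and 214700 in the Kir2.1 mice, and the Kir2.1 range enclosed the control range. Dcx, a microtubule protein of migrating neurons, had values of 6086, 6211 and 5102 in the control mice and 4671, 5651 and 5309.9 in the Kir2.1 mice (change of -0.15 on the log2 scale, SE 0.11, adjusted p = 0.684). Of 15 regulators of neurogenesis none passed either threshold, and Neurod1 had a log2 fold change of -0.22 (adjusted p = 0.624). Of 35 genes of cell proliferation none was called and Cenpf, a kinetochore protein, was the 1 gene with an unadjusted p under 0.05, with values of 2540, 2919 and 2680.4 in the control mice and 2244, 2096 and 1824 in the Kir2.1 mice (change of -0.40 on the log2 scale, SE 0.10, adjusted p = 0.194). The median of the proliferation list was -0.0073 (-0.03 without control replicate 3 to 0.06 without control replicate 2). A p that misses the threshold with 3 mice per group does not show that these genes were equal between the groups.

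Among 25 genes of cell death none was called, none was lower and 2 were higher with an unadjusted p below 0.05, and the median was 0.06 (0.04 without Kir2.1 replicate 1 to 0.08 without control replicate 1). These 2 were Hrk and Bok, both pro-apoptotic members of the Bcl-2 family. Hrk had values of 2018, 2008 and 1898 in the control mice and 2596, 2328 and 2416 in the Kir2.1 mice (change of 0.31 on the log2 scale, SE 0.07, adjusted p = 0.182), and Bok had values of 1133, 1104 and 1168 in the control mice and 1465, 1214 and 1285 in the Kir2.1 mice (change of 0.22 on the log2 scale, SE 0.09, adjusted p = 0.44). In both genes the groups did not overlap. Of the 25, 6 had every Kir2.1 mouse above every control mouse and 1 the reverse, against 7.26% and 9.04% of all genes. The list summed to 42569, 42230 and 42776 in the control mice and 43260, 44140 and 45589 in the Kir2.1 mice, with no overlap. Of 30 genes of the unfolded protein response none was called, and the median was -0.0077 (-0.03 without control replicate 1 to 0.02 without control replicate 2). Of 26 regulators of receptor choice and OSN identity none was called, and Tshz2, with the smallest p, had a log2 fold change of -0.26 (adjusted p = 0.247). Of 23 genes of intraflagellar transport and the BBSome, which build and supply cilia, none was called and the median was -0.05 (-0.08 without Kir2.1 replicate 3 to -0.01 without Kir2.1 replicate 2).

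**Figure D4:**
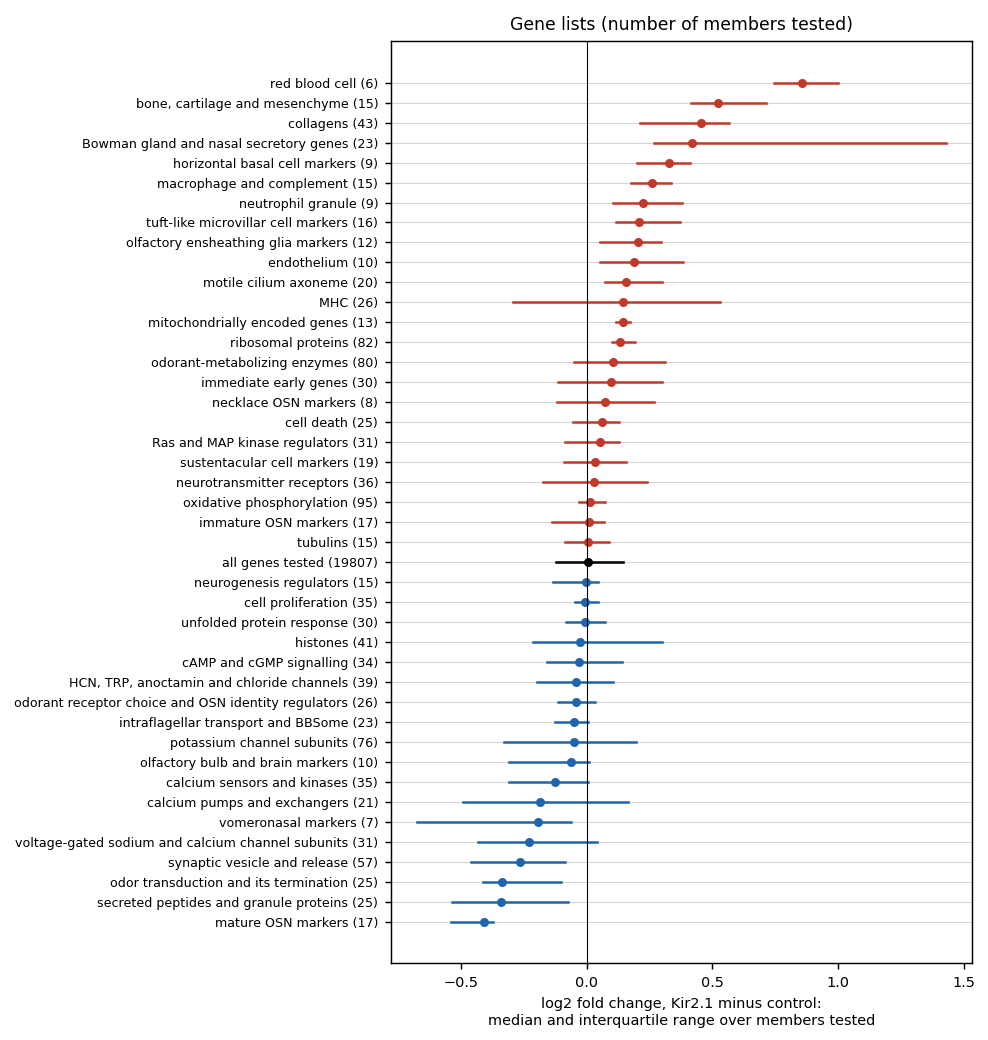
For each gene list, with the number of members tested in parentheses, the dot gives the median log2 fold change (Kir2.1 minus control) and the line the range from the first to the third quartile, blue below 0, red above 0 and black for all genes. Of the lists drawn, which leave out the activity-linked, transgene context and receptor lists, mature OSN markers lie lowest at -0.41 and red blood cell genes highest at 0.86, while immature OSN markers and proliferation genes lie near 0.

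Several lists of other cells in the tissue lay above 0 as a whole, without any called gene. Of 15 genes of bone, cartilage and mesenchyme 8 were higher and none lower at an unadjusted p under 0.05, and all 15 had a log2 fold change above 0, with a median of 0.52 (0.39 without control replicate 2 to 0.90 without control replicate 3). The count of 8 ranged from 4 without Kir2.1 replicate 1 to 12 without control replicate 3. Their sums, 97699, 74882 and 206710 in the control mice and 167650, 188600 and 146190 in the Kir2.1 mice, overlapped between the groups, and control replicate 3 had the highest of the 6. Sp7, a factor of bone-forming cells, had values of 233, 577 and 283 in the control mice and 1994, 773 and 1174 in the Kir2.1 mice (change of 1.85 on the log2 scale, SE 0.42, adjusted p = 0.174), and Col3a1 and Col2a1 had log2 fold changes of 0.73 and 0.45 (adjusted p = 0.213 and 0.241). Of 43 collagens 16 were higher and none lower by the same rule, with a median of 0.45 (0.28 without control replicate 2 to 0.62 without control replicate 3). The count of 16 ranged from 9 without control replicate 2 or Kir2.1 replicate 1 to 25 without control replicate 3. Red blood cell genes summed to 11216, 11100 and 20062 in the control mice and 33760, 26366 and 20330 in the Kir2.1 mice, with no overlap. Of the 6 tested, 5 were higher with an unadjusted p below 0.05 with a median of 0.86 (0.70 without Kir2.1 replicate 1 to 1.10 without control replicate 3). The count of 5 ranged from 3 without control replicate 1, control replicate 2 or Kir2.1 replicate 1 to 6 without control replicate 3. Hba-a1, a hemoglobin gene, had values of 2097, 2012 and 4122 in the control mice and 6361, 5496 and 4732 in the Kir2.1 mice (change of 1.08 on the log2 scale, SE 0.27, adjusted p = 0.205), but the hemoglobin genes are near-identical copies and their reads can be split.

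Thbs1, Slc11a2 and C1s1 are also expressed outside neurons, and the sums of red blood cell genes, which did not overlap, and of bone and mesenchyme genes, which did, stand beside their rise. The part of these cells in it was not tested. Macrophage and complement genes summed to 4477, 3468 and 4639 in the control mice and 5347, 5048 and 4748 in the Kir2.1 mice, again with no overlap. Of the 15, 1 was higher with an unadjusted p below 0.05 and none was called, with a median of 0.26 (0.19 without control replicate 2 to 0.31 without Kir2.1 replicate 3). Sustentacular cell markers, from the supporting cells of the epithelium, had a median of 0.03 (-0.07 without control replicate 2 to 0.08 without control replicate 1), with none of 19 called. Horizontal basal cell markers had a median of 0.33 (0.09 without Kir2.1 replicate 1 to 0.52 without Kir2.1 replicate 3) with none of 9 called, and of the 9 0 without control replicate 1, control replicate 2, Kir2.1 replicate 1 or Kir2.1 replicate 2 to 5 without Kir2.1 replicate 3 were higher with an unadjusted p below 0.05. Olfactory ensheathing glia markers had a median of 0.20 (0.08 without control replicate 2 to 0.24 without Kir2.1 replicate 2) with none of 12 called.

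Bowman gland and secretory genes varied more between mice than between groups, with sums of 217600, 1029800 and 352020 in the control mice and 1106600, 380040 and 453850 in the Kir2.1 mice. Control replicate 2 and Kir2.1 replicate 1 were the high ones. None of 23 was called, and the median was 0.42 (0.06 without Kir2.1 replicate 1 to 1.09 without Kir2.1 replicate 2). Of 82 ribosomal protein genes, 12 were higher and none lower at an unadjusted p under 0.05, all 82 had a log2 fold change above 0, and the median was 0.13 (0.11 without Kir2.1 replicate 1 to 0.20 without control replicate 1). The count of 12 ranged from 2 without control replicate 2 or Kir2.1 replicate 1 to 21 without control replicate 1. Rps20 had values of 17040, 16194 and 16066 in the control mice and 19335, 19509 and 18800 in the Kir2.1 mice (change of 0.23 on the log2 scale, SE 0.06, adjusted p = 0.242). None of the 13 mitochondrially encoded genes or the 95 nuclear genes of oxidative phosphorylation was called, and their medians were 0.14 (0.0022 without Kir2.1 replicate 2 to 0.31 without Kir2.1 replicate 3) and 0.01 (-0.02 without control replicate 2 to 0.04 without control replicate 1).

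**Figure D5:**
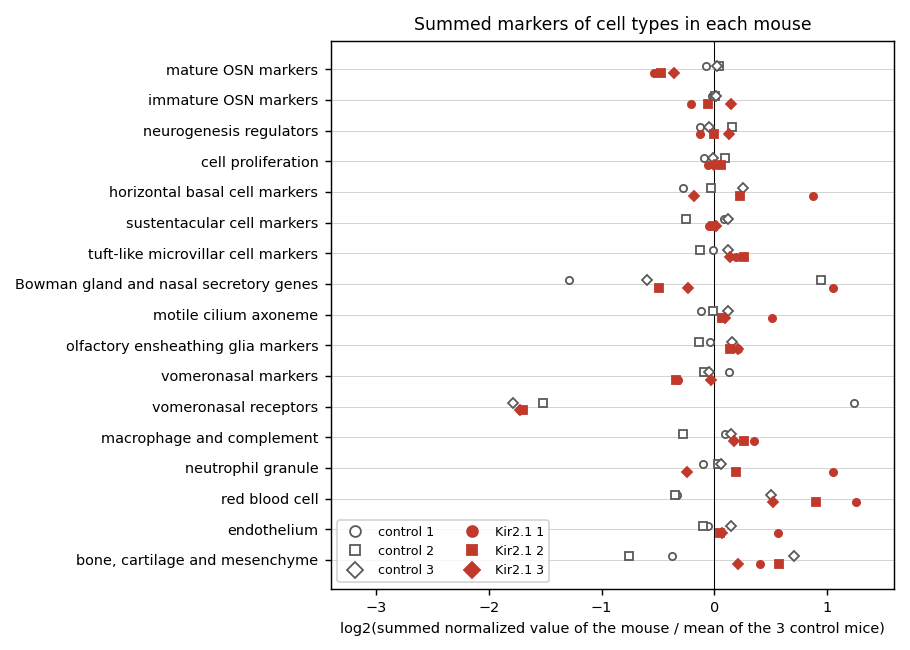
Summed normalized values of each marker list are shown per mouse as log2 of the ratio to the mean of the 3 control mice, with open grey symbols for control mice and red symbols for Kir2.1 mice. The groups lie apart for mature OSN markers, tuft-like microvillar cell markers, macrophage genes and red blood cell genes. They overlap for immature OSN markers, and control replicate 1 stands alone for vomeronasal receptors.

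Of the other called features, several were pseudogenes or gene models with values near 0 in one group. In 7 features every mouse of one group was below 1 and every mouse of the other was at 10 or more. Ncoa4-ps, a pseudogene of Ncoa4, was listed at 0 in the 3 control mice and at 286, 243 and 239.6 in the Kir2.1 mice. Gm28900, Gm4353 and Gm4366 were also listed at 0 in all control mice, with lowest Kir2.1 values of 17.7, 30.6 and 35.1. Gm14018, Gm2423 and AC124742.1 were the reverse, listed at 0 in all Kir2.1 mice and with lowest control values of 16.7, 29.5 and 19.2. No fold is given against a group listed at 0.

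Of the called features that did not meet this rule, Krt8-ps, a pseudogene of the keratin gene Krt8 (chromosome 7, 23357125 to 23358069), had values of 911, 694 and 979 in the control mice and 4.85, 14.5 and 9.18 in the Kir2.1 mice. The groups lay nearly 2 orders of magnitude apart (change of -6.45 on the log2 scale, SE 0.36, adjusted p = 0.00107). Krt8 itself had values of 25215, 20972 and 26988 in the control mice and 27777, 29899 and 27353 in the Kir2.1 mice and was not called (change of 0.22 on the log2 scale, SE 0.10, adjusted p = 0.503), and Ncoa4 had values of 2461, 2172 and 2759.6 in the control mice and 2944, 4163 and 2091 in the Kir2.1 mice (change of 0.27 on the log2 scale, SE 0.23, adjusted p = 0.764). Gm7658 (chromosome 1, 21511933 to 21513056) had values of 3.11, 1.87 and 2.08 in the control mice and 419, 380.1 and 347 in the Kir2.1 mice (change of 6.85 on the log2 scale, SE 0.26, adjusted p = 0.000157), Gm47021 (chromosome 13, 12259793 to 12260270) had values of 220.1, 235 and 273 in the control mice and 2.88, 0 and 0 in the Kir2.1 mice, and Gm13328 had values of 0, 2.90 and 0 in the control mice and 144, 126 and 252 in the Kir2.1 mice. Pseudogenes share reads with their parent genes, so the values of these features are uncertain as levels of a transcript.

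By position, chromosomes 2 and 7 each held 11 of the 70 called genes, while they held 8.54% and 8.65% of the genes tested. On chromosome 2 and on chromosome 7 alike, these were 7 lower and 4 higher genes. Omp lies on chromosome 7. The largest run within 5 Mb was on chromosome 2 and held Spred1, Thbs1 and Gm14018 among 93 tested genes, between starts at 117121374 and 121485432. Gm4353 and Gm4366, both listed at 0 in the control mice, start at 116082863 and 116824510 on chromosome 7. The site of the tetO transgene is not given in the sources used here, so the distance of these genes from it was not examined.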

How the data were processed

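The authors sequenced poly-A RNA of whole olfactory epithelia of individual pups as 40 bp single-end reads. Reads were quantified with Salmon 1.3.0 against Ensembl 100 transcripts, with mm10 named in the submitters' processing notes, with a reverse-stranded setting although the reads are described as unstranded, then summed to genes and normalized across samples with DESeq2 1.30.0. The deposited values are this normalized signal per gene symbol, not counts, and its depth is unknown. Without strand, reads of overlapping or antisense genes cannot be told apart, and the effect of the setting on the values was not tested. For the present analysis log2(value + 1) was fitted with limma 3.58.1 (trend, R 4.3.3) for genes with a mean of at least 10, with the group as the only term and Benjamini-Hochberg adjustment at 0.05. Fold changes are on that log2 scale and understate those of low genes. P-values set the difference against the spread between 3 mice per group, with each gene's variance drawn toward a trend over all genes tested. For a single value, the smallest exact two-sided permutation p of 3 against 3 mice is 0.1, so none is given. Gene types and positions came from GENCODE vM21 by symbol (96.0% of symbols matched). Named genes were Kcnj2 and Omp, the called coding genes with the smallest p outside the receptor and axon guidance families (25 lower and up to 12 higher), and in each list the called members or up to 3 with the smallest p. The genes and lists were chosen with earlier results of these data known. The fit was tested on simulated data. Alternatives changed the pseudocount, filter, scaling, variance model, covariates, replicate block and mice, and a fit of coding genes alone was added after seeing the data.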

Additional observations from a re-analysis of the deposited data

How the results depend on the processing

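All 70 calls kept their direction in the 19 other fits wherever the gene was tested, but their number was not stable. It was 171 (30 higher and 141 lower) at an adjusted p under 0.1, 20 (7 and 13) without the mean-variance trend, and 22 (6 and 16) with the vomeronasal receptor covariate. With any one mouse left out it was 23 to 44, with 7 to 16 higher and 13 to 31 lower. A pseudocount of 0.5 or 5, a mean of at least 50 or no filter, quantile normalization, median centring, robust empirical Bayes, sample weights, a sex covariate and coding genes alone gave 54 to 86 calls. The cause of the lost calls was not tested.

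With the replicate number as a replicate block 9 genes were called (4 higher and 5 lower), 8 of them among the 70. Nothing in the labels says that mice of the same number share a litter or day. After each group's mean was taken out, control and Kir2.1 mice with the same number had correlations of -0.0585 (number 1), -0.0106 (number 2) and 0.155 (number 3), and control replicate 2 correlated best with Kir2.1 replicate 1 at 0.204, so the numbers were not taken to pair the mice.

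List medians moved by more than the spread between replicates in 29 comparisons, over 15 lists, and by less in 845. Some list medians lay so near 0 that their sign changed in 3 or more alternatives. These were the immature OSN marker, neurogenesis, proliferation, sustentacular, tubulin, neurotransmitter receptor, histone and oxidative phosphorylation lists. With unknown depth no counting error can be given for low genes.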

Other observations

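Lists that the account above left out held few called genes. Genes of the major histocompatibility complex (MHC), which present peptides to immune cells, had 6 of 26 tested members higher and 2 lower at an unadjusted p under 0.05, none called, with a median log2 fold change of 0.15 (0.04 without control replicate 2 to 0.34 without control replicate 1), given here and below with its lowest and highest value over the fits that left out 1 mouse. The count of 6 ranged from 0 without control replicate 2, Kir2.1 replicate 1 or Kir2.1 replicate 3 to 8 without Kir2.1 replicate 2. B2m, the shared light chain of class I molecules, had values of 3102, 1885 and 2506 in the control mice and 5002, 2855 and 5707 in the Kir2.1 mice (change of 0.82 on the log2 scale, SE 0.28, adjusted p = 0.335; limma with Benjamini-Hochberg adjustment). H2-T23, a nonclassical class I gene, had values of 664, 586 and 699 in the control mice and 1834, 705 and 1998 in the Kir2.1 mice (change of 1.08 on the log2 scale, SE 0.37, adjusted p = 0.335). Kir2.1 replicate 2 had a lower list sum than control replicate 1, so the groups overlapped.

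Motile cilium genes, which mark the respiratory cells at the border of the olfactory epithelium, had 4 of 20 members higher with an unadjusted p below 0.05 (1 without control replicate 2 or Kir2.1 replicate 1 to 6 without Kir2.1 replicate 3), none called, and a median of 0.16 (0.03 without Kir2.1 replicate 1 to 0.24 without Kir2.1 replicate 2). Tuft-like microvillar cell markers had a median of 0.21 (0.10 without control replicate 2 to 0.29 without Kir2.1 replicate 1) with none of 16 called, and necklace OSN markers one of 0.07 (-0.003 without control replicate 2 to 0.18 without control replicate 1) with none of 8 called. The tuft-like list summed to 6187, 5701 and 6770 in the control mice and 7129, 7478 and 6860 in the Kir2.1 mice, with no overlap. Endothelium and neutrophil genes had medians of 0.19 (-0.01 without Kir2.1 replicate 1 to 0.28 without Kir2.1 replicate 2 or Kir2.1 replicate 3) and 0.22 (0.10 without Kir2.1 replicate 2 to 0.45 without Kir2.1 replicate 3), with none called among 10 and 9. Neutrophil genes summed to 12565, 13862 and 14070 in the control mice and 28015, 15463 and 11429 in the Kir2.1 mice, and Kir2.1 replicate 1 was the high one. Of 7 vomeronasal markers none was called and 2 were lower at an unadjusted p under 0.05, with a median of -0.19 (-0.35 without Kir2.1 replicate 3 to -0.08 without control replicate 1). One of the 2 was Trpc2, the cation channel of vomeronasal neurons, with values of 528, 376 and 283 in the control mice and 225, 145 and 152 in the Kir2.1 mice (change of -1.16 on the log2 scale, SE 0.26, adjusted p = 0.173). Olfactory bulb and brain markers had a median of -0.06 (-0.18 without control replicate 1 to -0.05 without control replicate 3), with none of 10 called. The 34 genes of cAMP and cGMP signaling held Pde1c as the only called member, with a median of -0.03 (-0.05 without Kir2.1 replicate 3 to -0.03 without Kir2.1 replicate 1). Histones had a median of -0.03 (-0.10 without Kir2.1 replicate 3 to 0.09 without control replicate 3) with none of 41 called. Odorant-metabolizing enzymes had a median of 0.10 (0.03 without Kir2.1 replicate 1 to 0.13 without control replicate 1) with none of 80 called.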
